A study of Mus musculus with 54 samples.

Results

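The data described here follow S54F mouse myogenic progenitors from 24 h to 48 h after the switch to differentiation medium. The samples were chosen by their titles, S54F at T=24 and at T=48, with 3 labelled replicates at each time. They are 6 of the 54 samples of the series, and the deposited table that sets these groups side by side lists 17348 genes. The series sequenced poly-A RNA of H2K myogenic progenitors that carry different forms of emerin, an inner nuclear membrane protein whose loss causes Emery-Dreifuss muscular dystrophy. Its labels put the samples at 0, 24 and 48 h of differentiation. The comparison asks how the S54F line goes through the second day of differentiation.

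S54F progenitors are *EMD* -/y cells, which lack emerin, transduced with a lentivirus that carries emerin with the S54F missense change found in patients. +EMD progenitors are the same null cells transduced with wildtype emerin, and wildtype and *EMD* -/y progenitors were not transduced. These 3 lines are set beside S54F here, and the 2 further lines of the series, with other variants of emerin, were not used here. H2K cells are conditionally immortal: they divide in medium with γ-interferon, and the differentiation medium holds 5% horse serum and no γ-interferon. S54F cells, like the other mutant lines, were plated at a higher density than wildtype and *EMD* -/y cells and were kept in puromycin, so comparisons of S54F with those 2 lines cannot tell genotype apart from density and antibiotic. For the RNA samples neither is stated for +EMD cells, which were selected at a lower dose of puromycin than S54F cells. The study's text gives 2 biological replicates with 3 technical replicates of each, and whether the 3 labelled replicates of a group are technical or biological is unclear.

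Myoblasts leave the cell cycle when Myod1 and myogenin switch on muscle genes together with MEF2 factors, and the cell cycle genes are then silenced through the retinoblastoma family. The resulting myocytes fuse into myotubes by means of the membrane proteins myomaker and myomerger. Myotubes first assemble sarcomeres from embryonic isoforms of myosin and actin and later add perinatal and adult ones, with the membrane system that releases calcium.

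Each value below is a level, the authors' value of a gene for a whole group in normalized reads per library. The tables used hold 0 columns per sample, so no level has an error, no new test could be run, and the depth of each library is unknown. The authors' own p-values and q-values were not used. The levels of all genes sum to 17521680 at 24 h and 21128040 at 48 h. They are not plain means: genes with a single read in all 6 libraries have levels near 0.16 and 0.14, or near 0.17 and 0.20, never 0. The split of a gene's reads between the groups is thus drawn towards equality where reads are few, and changes of genes with low levels are understated. A level of 10 in both groups stands for 53.4 to 68.2 reads over the 6 libraries. Changes are given as log2 of the ratio of levels at 48 h and 24 h after adding 1 to each, for genes whose higher level is at least 10. Differences between lines are between separately normalized tables and were not tested.

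The transgene itself is not seen at the *Emd* gene. *Emd* (gene ID 13726) had levels of 0.162 at 24 h and 0.141 at 48 h in S54F cells, the values of a single read. In wildtype cells its levels were 1632 and 1075, and in +EMD cells 0.512 and 0.458. The table of *EMD* -/y cells does not list it. S54F and +EMD cells were near 0 at this gene, and the level of the S54F transcript cannot be read from these tables.

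The cells carried the markers of skeletal myoblasts and myocytes. All 11 of them passed the filter, and their summed level was 180640 at 24 h and 674221 at 48 h, led by *Acta1*, skeletal α-actin. Of 7 cardiac markers 6 were listed, with summed levels of 50.3 and 110, led by *Gata4* at 24 h and *Myh6* at 48 h, and *Nppa*, *Tnni3* and *Nkx2-5* had levels near 1 or below. The 7 smooth muscle markers summed to 51026 and 97838, nearly all of it *Acta2*, which myoblasts also express. Fibroblast markers summed to 4040.5 and 8230.2, nearly all of it *Col1a1*, with 5 of 7 listed. Those of endothelium summed to 32.3 and 23.4 with *Tek* highest, those of immune cells to 32.2 and 31.8 with *Cd68* highest, and those of adipocytes to 7.51 and 9.36 with *Pparg* highest. Schwann cell and neuron markers summed to 591 and 359.5, nearly all of it *Tubb3*. *Adipoq*, *Plin1*, *Adgre1*, *Tie1* and *Sox10* were not listed.

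In S54F progenitors transcripts of the contractile apparatus were higher at 48 h than at 24 h, and those of cell division were lower. The thick filament list had a median log2 change of 2.85, and the mitosis list one of −3.47. The interferon response list had a median of −0.88, and collagens and other matrix genes went in both directions. Of 13336 genes past the filter, 1252 (9.39%) were at least 2-fold higher at 48 h and 1480 (11.1%) at least 2-fold lower. These shares are the background for the counts of each list below in S54F cells. The median change was −0.00, and 79.5% of the genes stayed within 2-fold. With both groups scaled to the same sum of levels, changes shift by −0.27, so a gene less than 0.27 above 0 then has the opposite sign, and the counts are 861 higher and 2286 lower. In bulk RNA, fewer cells of a type and less RNA per cell cannot be told apart, and this holds for each change below. The 10 most abundant genes held 6.46% of the summed levels at 24 h and 9.63% at 48 h.

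**Figure D1:**
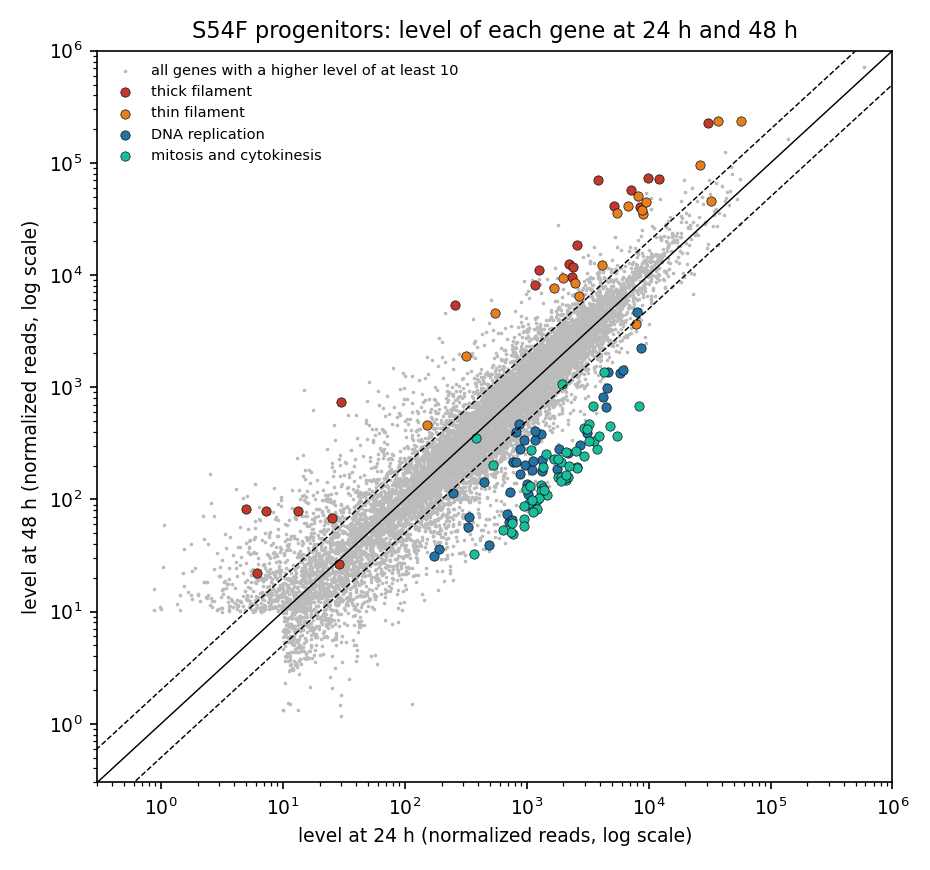
Level of each gene at 24 h (horizontal, log scale) and at 48 h (vertical, log scale) in S54F progenitors, in normalized reads, for the 13336 genes with a higher level of at least 10. The solid line marks equal levels and the dashed lines a 2-fold difference; 20 of 21 thick filament genes and 17 of 19 thin filament genes lie above the upper dashed line, and 54 of 56 mitosis genes and 39 of 41 DNA replication genes lie below the lower one.

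Among 10483 genes with a level of at least 100 at either time, predicted genes left out, the largest difference was that of *Fgf21* (gene ID 56636), a secreted hormone that muscle makes under metabolic and endoplasmic reticulum stress. Its level was 14.9 at 24 h and 943 at 48 h, a log2 change of 5.89. *Tcap*, telethonin of the Z-disc, followed with 17.7 and 622. *Hephl1*, a ferroxidase of the ceruloplasmin family, was at 4.14 and 123. The adult fast myosin *Myh4* was at 29.9 and 741, and the perinatal myosin *Myh8* at 3842 and 70569. *Capn3*, the calpain of skeletal muscle, had levels of 212 and 4556. The calcium-binding protein *Casq1* had 51.1 and 1113, and *Mybpc1*, slow myosin-binding protein C, had 257 and 5395. *Tspan13*, a tetraspanin, and *Fsd2* complete the 10 genes with the largest differences upwards, with log2 changes of 4.22 and 4.34. Of these 10 genes, *Tcap*, *Myh4*, *Myh8*, *Capn3*, *Casq1* and *Mybpc1* encode parts of the muscle fibre, and *Fgf21* stood 63.2-fold higher.

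Among the same 10483 genes, the 10 with the largest differences downwards all belong to dividing cells. *Ndc80*, a kinetochore protein, had levels of 947 and 58.4, a log2 change of −4.00. *Esco2*, which acetylates cohesin, was at 663 and 41.1, and *Cep55*, needed to separate daughter cells, at 769 and 49.1. The proliferation marker *Mki67* was at 5515 and 367. *Pclaf*, a partner of PCNA, was 14.9-fold lower, as was the S-phase cyclin *Ccne2*. The mitotic kinesins *Kif2c* and *Kif15*, the kinetochore scaffold *Knl1* and the kinase *Aurkb* had log2 changes between −3.86 and −3.81. Their levels of 51.4 to 82.4 at 48 h show that such transcripts were low but still present.

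The transcription factors that drive differentiation were already abundant at 24 h. *Myod1*, which commits cells to muscle, had levels of 17088 and 19759, a log2 change of 0.21 that is below 0 when group sums are made equal. Myogenin, *Myog*, was at 33747 and 48027, a log2 change of 0.51. Of 20 myogenic and progenitor factors past the filter, 2 were at least 2-fold higher and 3 lower, beside 9.39% and 11.1% of all genes. The median of this list was −0.35. *Mef2c*, a partner of the myogenic factors, was 4.98-fold higher (2889 and 14373). *Myf6*, the late factor of the family, was barely detected at 24 h with 2.24 and reached 44.3. *Mef2a* and *Mef2d* had log2 changes of 0.39 and 0.86. *Mef2c* and *Myf6* were thus several-fold higher at 48 h, and *Myod1* and *Myog* were not.

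Most named factors of this list stayed within 2-fold. The satellite cell factor *Pax7* had levels of 896 and 457, and *Pax3* had 231 and 124. *Myf5*, the early myogenic factor, was at 422 and 333. The Notch target *Hes1*, the inhibitor of differentiation *Id2* and the E protein *Tcf3* are the 3 that passed 2-fold, with log2 changes of −1.37, −1.04 and −1.01. The related inhibitors *Id1* and *Id3* followed a course unlike that in wildtype cells. *Id1* was at 609 and 573 in S54F cells, against 589.7 and 193 in wildtype cells. *Id3* was at 943 and 693 in S54F, a log2 change of −0.44, against −2.15 in wildtype, −1.14 in *EMD* -/y and −0.78 in +EMD cells. At 48 h S54F cells thus held more *Id1* than wildtype cells, and the fall of *Id3* was smaller in S54F cells than in each other line. *Six4*, *Heyl*, *Hey1*, *Tcf12* and *Snai1* had log2 changes between −0.78 and −0.19. *Msc*, musculin, was near 1 at both times.

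Among fusion genes *Mymk*, myomaker, had levels of 12284 and 48153, and its partner *Mymx*, myomerger, 1283 and 2457. Of 20 genes past the filter, 4 were at least 2-fold higher and 3 lower, with a median of 0.30, which is 0.03 when group sums are made equal. *Cav3*, muscle caveolin, was 8.06-fold higher (582 and 4692). The adhesion molecule *Jam2* and the laminin receptor subunit *Itga7* had log2 changes of 1.18 and 1.01, both under 2-fold when group sums are made equal. The 3 lower genes act at contact and in actin remodelling: the adhesion molecule *Kirrel* (2573 and 1084), the Rac activator *Dock1* (1409.7 and 688) and the receptor *Adgrb1* (13.6 and 3.61). The cadherins *Cdh15* and *Cdh2*, the tetraspanins *Cd9* and *Cd81*, *Itgb1*, *Rac1* and *Myof* stayed within 2-fold. *Adgrb3* and *Nphs1* had levels near 1 or below.

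The thick filament list had the highest median of all the lists. Of 21 genes past the filter 20 were at least 2-fold higher and none lower, with a median of 2.85; *Mylk2*, a myosin light chain kinase, was the exception at 29.1 and 26.8. The embryonic myosin heavy chain *Myh3* had levels of 30667 and 226211. The embryonic light chain *Myl4* was at 7166 and 56786, the fast chains *Myl1* and *Mylpf* at 9928 and 73897 and at 12196 and 71712. *Myom2* and *Myom1*, M-band proteins that crosslink the filaments, had log2 changes of 2.85 and 2.82. Fast myosin-binding protein C, *Mybpc2*, was barely present at 24 h with 5.00 and reached 82.2. *Myl3* of slow and cardiac fibres stayed near 1.

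Per kilobase of transcript, levels of different myosin heavy chains can be compared. At 24 h *Myh3* held 74.9% of the level per kilobase of 8 such genes, *Myh1* 12.6%, *Myh8* 9.23% and the slow myosin *Myh7* 3.11%. At 48 h the shares were 64.8% for *Myh3*, 11.8% for *Myh1*, 19.9% for *Myh8* and 3.19% for *Myh7*. The perinatal isoform thus held a larger share at 48 h while the embryonic one still led; of the adult isoforms besides *Myh1*, *Myh4* held 0.213%. *Myh3*, *Myh2*, *Myh1*, *Myh4* and *Myh8* lie in this order between positions 67078273 and 67308634 of chromosome 11 (GRCm38), and along it they were 7.38-fold, 5.97-fold, 7.98-fold, 24.8-fold and 18.4-fold higher. The log2 change of *Myh2*, 2.49 here, was 1.91 with S54F levels from the comparisons against wildtype. *Myh6* and *Myh7* lie side by side on chromosome 14, with log2 changes of 3.28 and 3.13.

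Thin filament genes followed. Of 19 past the filter, 17 were at least 2-fold higher and 1 lower, with a median of 2.11. *Acta1* had levels of 36907 and 234106, and cardiac α-actin, *Actc1*, the isoform of developing muscle, 57673 and 235828. Both actins thus ended alike, after *Acta1* started lower. The troponin C genes *Tnnc1* and *Tnnc2* had log2 changes of 2.62 and 2.71, and the troponin I genes *Tnni1* and *Tnni2* 2.59 and 2.27. The troponin T genes *Tnnt1*, *Tnnt2* and *Tnnt3* had 1.56, 2.11 and 2.24. *Neb*, nebulin, which spans the thin filament, was at 9029.8 and 34854. Its capping protein *Tmod1* was 8.38-fold higher, and the nucleators *Lmod2* and *Lmod3* 5.98-fold and 3.42-fold. Tropomyosins split: *Tpm2* was at 26302 and 96416, *Tpm1* had a log2 change of 0.50, and *Tpm3* was the 1 lower gene at 7862 and 3694. *Tpm3* has a near-identical copy, *Tpm3-rs7*, and *Tnnc2* overlaps exons of *Ube2c* on the other strand, and the strand of the counted reads is not given.

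At the Z-disc and in sarcomere assembly, 29 of 34 genes were at least 2-fold higher and none lower, with a median of 1.93. *Ttn*, titin, had levels of 19402 and 70323. *Actn2*, α-actinin of the Z-disc, was 15.7-fold higher (1795 and 28198). *Des*, desmin, which ties Z-discs together, was at 22543 and 59524, and *Flnc*, filamin C, at 19780.4 and 55014. The stretch-responsive protein *Ankrd1* had a log2 change of 0.41. *Pdlim3* reached 2.00-fold and just missed the threshold. By their medians the thick filament list was thus ahead of the thin filament list, and that one of the Z-disc list.

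The machinery that couples excitation to contraction was higher too. Of 27 genes, 24 were at least 2-fold higher and none lower, with a median of 1.71. *Atp2a1*, the calcium pump of fast fibres, had levels of 8257 and 46248. *Casq2*, calsequestrin of the calcium store, was at 5451 and 38934, and *Srl*, sarcalumenin, at 9496 and 54427. *Bin1*, which shapes T-tubules, was at 15094 and 32958. *Jph2*, junctophilin, which holds store and T-tubule together, was at 5421 and 9234, a log2 change of 0.77.

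Acetylcholine receptor subunits were those of fetal muscle. *Chrna1* had levels of 18383 and 45787, the fetal subunit *Chrng* 3586 and 12949, *Chrnd* 2512 and 5584, and *Chrnb1* 2151 and 3496. The adult subunit *Chrne* stayed at the value of a single read, 0.162 and 0.141. Of 11 genes of this list past the filter, 5 were at least 2-fold higher and none lower, with a median of 0.98. The receptor kinase *Musk*, its adaptor *Dok7* and the clustering protein *Rapsn* had log2 changes of 0.93, 0.95 and 0.98, just under 2-fold. *Colq*, which anchors acetylcholinesterase, and the esterase *Ache* both had a log2 change of 1.26. *Agrn*, agrin, was lower, with 1067 and 613.

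In the dystrophin-glycoprotein complex 7 of 14 genes were at least 2-fold higher and 1 lower, with a median of 0.91. α-Dystrobrevin, *Dtna*, had levels of 783 and 2826. The syntrophin *Sntb1* had a log2 change of 1.47, and α-sarcoglycan, *Sgca*, one of 1.00. β-Dystrobrevin, *Dtnb*, was the lower gene with 234 and 91.6. Dystroglycan, *Dag1*, and utrophin, *Utrn*, had 0.81 and 0.47. Dystrophin itself, *Dmd*, named after its values were seen, was low in S54F cells, with a level of 25.4 at 24 h and a log2 change of −0.20. Its levels were 37.3 and 59.6 in wildtype, 87.2 and 97.5 in *EMD* -/y and 0.949 and 2.63 in +EMD cells.

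Most of the enzymes that fuel contraction were at least 2-fold higher. Of 22 genes of muscle energy metabolism, 15 were at least 2-fold higher and none lower, with a median of 1.88. *Pygm*, glycogen phosphorylase, had levels of 3325 and 13472, and the glycolytic enzymes *Pgam2*, *Eno3* and *Aldoa* log2 changes of 2.86, 1.20 and 1.17. *Gys1*, glycogen synthase, was at 2621 and 5234, and *Ldha* at 25459.8 and 22673. All 42 subunits of the respiratory chain on the list were above 0, between 0.14 and 1.00 with a median of 0.58, and only *Ndufa6* passed 2-fold. The ATP synthase genes *Atp5b* and *Atp5a1* both had log2 changes of 0.61. When group sums are made equal the median of the respiratory chain is 0.31, *Ndufa6* is under 2-fold, and *Ndufb6* at 0.14 is then below 0.

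DNA replication genes were lower nearly without exception. Of 41 genes 39 were at least 2-fold lower and none higher, with a median of −2.37. The subunit *Rrm2* of ribonucleotide reductase had levels of 8640.2 and 2259, the replication clamp *Pcna* 6209 and 1414, the maintenance methyltransferase *Dnmt1* 5811 and 1329.7, and the helicase subunit *Mcm2* 4679 and 1356. *Rrm1*, the large subunit of the reductase, and *Gins4* were the exceptions, with log2 changes of −0.79 and −0.87. *Pcna* has a near-identical pseudogene.

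Mitosis genes were lower still. Of 56 genes, 54 were at least 2-fold lower and none higher, with a median of −3.47. *Top2a*, which untangles chromosomes, had levels of 8325 and 679. *Anln*, anillin of the cleavage furrow, was at 4783 and 448, and the condensin subunit *Smc4* at 4311 and 1361. Securin, *Pttg1*, and the phosphatase *Cdc25b* were the exceptions. *Pttg1* stood at 383 and 353 in S54F cells, against 771 and 80.6 in wildtype, 303 and 362 in *EMD* -/y and 336 and 249.9 in +EMD cells. In the 3 lines other than wildtype *Pttg1* thus stayed within 2-fold, and in wildtype cells it had a log2 change of −3.24.

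Of 33 cyclins, E2F factors, pocket proteins and inhibitors, 11 were at least 2-fold lower and none higher, with a median of −0.54. Repressive *E2f7* and *E2f8* were at 598 and 45.1 and at 1953 and 771, and the activator *E2f1* at 1198 and 433, while *E2f2* was at 1257 and 1361, a log2 change of 0.12 that is below 0 with equal sums. *Mybl2* and *Foxm1*, which drive genes of the G2 phase and mitosis, were 12.5-fold and 9.73-fold lower. The G1 cyclin *Ccnd1* was at 5417 and 2119, and its kinase *Cdk6* at 1432 and 561, while *Ccnd3*, the D cyclin of muscle, was at 7283 and 10749. *Ccne1* was 4.03-fold lower, and *Cdk2* and *Cdk4* had −0.14 and −0.72. Of the pocket proteins, *Rb1* was at 7173 and 9265 and *Rbl1* at 1104 and 237. The inhibitors *Cdkn1a* (35967 and 66828), *Cdkn1c* (18568 and 33904) and *Cdkn1b* (1021 and 1573) had log2 changes of 0.89, 0.87 and 0.62. They were abundant at 24 h, and each was less than 2-fold higher at 48 h. The INK4 genes *Cdkn2a*, *Cdkn2c* and *Cdkn2d* had −0.24, −0.63 and −0.07, and *Cdkn2b* had 0.24, which is below 0 when group sums are made equal. *Cdkn1a* shares exon bases with a transcript on the other strand.

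Most genes of homologous recombination were at least 2-fold lower, and most genes of the p53 pathway stayed within 2-fold. For homologous recombination 18 of 28 genes were at least 2-fold lower and none higher, with a median of −1.74. *Brca1*, of the repair of broken strands, had levels of 895 and 166. *Topbp1* and *Atm*, of the damage checkpoint, had log2 changes of −1.92 and −1.56, and *Rad50* and *Mre11a*, which bind broken ends, −0.95 and −0.75. In the p53 pathway 11 of 38 genes were at least 2-fold lower and 1 higher, with a median of −0.60. *Trp53* itself was at 4421 and 2003, and its targets *Gtse1* and *Trp53inp1* at 4853 and 937 and at 7932 and 3170.2. The growth arrest gene *Gadd45a* was the 1 higher, with 1209 and 2735, but it is under 2-fold when group sums are made equal. *Cdkn1a*, named above, is on this list too.

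Genes of the interferon response had a median below 0, the lowest of the 4 lines used. Of 41 genes past the filter 13 were at least 2-fold lower and none higher, with a median of −0.88, and 35 were below 0. The GTPases *Gbp2* and *Gbp7* had levels of 1982 and 726 and of 978 and 379. *Nlrc5*, the activator of MHC class I genes, was at 1103 and 484. Among class I molecules *H2-D1* was at 17993 and 16468, and *B2m* at 42889.7 and 48295, a log2 change of 0.17 that is below 0 when group sums are made equal. The same list had medians of 0.02 in wildtype, 0.20 in *EMD* -/y and −0.42 in +EMD cells. In wildtype cells 2 of 41 genes were at least 2-fold lower, beside 11.9% of all genes, and in *EMD* -/y cells none was and 3 were higher. *Isg15*, a ubiquitin-like effector named for its difference from wildtype, was at 168 and 85.1 in S54F cells and at 504 and 825 in wildtype cells. Its levels were 216 and 449 in *EMD* -/y and 95.2 and 73.4 in +EMD cells. In the table that sets S54F against wildtype at 24 h the list's median was −0.14, with 15 of 42 genes higher in S54F. At 48 h it was −0.95, with 4 of 42 higher. By these medians the lines were thus close at 24 h and apart at 48 h. The samples of both times come from medium without γ-interferon, and the cells grew with it until the switch. Whether its withdrawal has a part in these changes was not tested.

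Collagens had a median above 0 in S54F cells and below 0 in the other 3 lines, a sign that in S54F cells depends on the scaling. Of 25 genes past the filter 6 were at least 2-fold higher and 1 lower, with a median of 0.24, which is −0.09 when group sums are made equal. *Col1a1*, a chain of fibrillar type I collagen, had levels of 3994 and 8144 in S54F cells, a log2 change of 1.03 that is 0.76 when group sums are made equal. In wildtype cells they were 8227 and 4829, in *EMD* -/y cells 17976 and 12021, and in +EMD cells 1291 and 1296. Its partner chain *Col1a2* was at 12756 and 13065 in S54F cells, and *Col3a1* at 21952 and 26423. The transmembrane collagen *Col25a1*, which muscle makes for its motor nerve, was 6.14-fold higher (531 and 3262). *Col19a1* and *Col24a1* had log2 changes of 1.86 and 1.48, and *Col27a1* was the lower gene at 38.1 and 17.3. The medians were −0.65 in wildtype, −0.57 in *EMD* -/y and −0.17 in +EMD cells. In wildtype cells 10 of 24 collagens were at least 2-fold lower, beside 11.9% of all genes. In +EMD cells 6 of 26 were higher and 5 lower, beside 11.0% and 9.53% of all genes. Set against wildtype in the same table, S54F cells had a collagen median of −0.64 at 24 h and 0.62 at 48 h. Of 25 genes 17 were lower in S54F cells at 24 h and 16 higher at 48 h, while *Col1a2* and *Col25a1* were lower at both times.

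**Figure D2:**
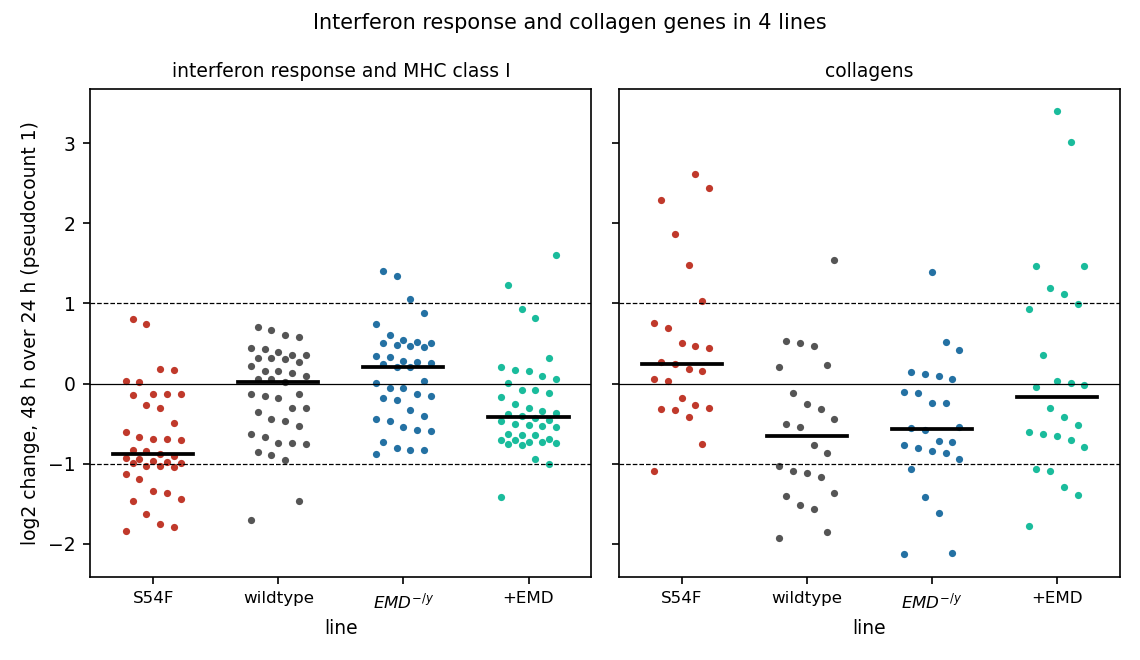
Log2 change between 24 h and 48 h (vertical, pseudocount of 1) of interferon response and MHC class I genes (left) and of collagens (right) in 4 lines; each point is a gene past the filter and each bar the median of its line. The interferon list lies lowest in S54F cells (median −0.88) and near 0 in wildtype cells (0.02); the collagen median is 0.24 in S54F cells, −0.09 with equal group sums, and −0.65 in wildtype cells.

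Among laminins and other glycoproteins 8 of 36 genes were at least 2-fold higher and 7 lower, with a median of −0.12. The medians were −0.52 in wildtype, −0.35 in *EMD* -/y and 0.06 in +EMD cells. *Postn*, periostin, had levels of 107 and 471, a log2 change of 2.13 in S54F cells and of 0.51 in wildtype, 0.25 in *EMD* -/y and 0.37 in +EMD cells. *Thbs2*, a thrombospondin, was at 594 and 1322, with 1.15 in S54F and −0.52 in wildtype cells. Fibulin *Fbln5* was 2.25-fold higher. *Thbs1* and osteopontin, *Spp1*, were lower at 22122 and 10442 and at 19545 and 9629.7, as were the syndecans *Sdc4* and *Sdc1*. Among proteases, inhibitors and crosslinking enzymes 4 of 32 genes were at least 2-fold higher and 5 lower, beside 9.39% and 11.1% of all genes. Their median was −0.03. *Adamts1* was higher at 574 and 1287, and *Mmp3*, *Mmp13* and *Mmp19* were higher from low levels. *Plau*, *Timp3* and *Timp1* were lower by log2 changes of −1.23, −1.17 and −1.01. Matrix breakdown and its inhibition thus showed no common direction.

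*Igf2*, the growth factor that myoblasts make for themselves, had levels of 42159.9 and 124279. It was the 1 gene of 16 of its axis that was at least 2-fold higher, while *Irs2* was the 1 lower, and the median was 0.31. Of all genes 9.39% were higher and 11.1% lower. A readthrough transcript, *Gm49394*, shares exons with *Igf2*. Of 40 genes of PI3K-Akt signalling 6 were at least 2-fold lower, beside 11.1% of all genes, and none higher, with a median of −0.15. The receptors *Met* and *Egfr* were 3.17-fold and 2.27-fold lower. *Akt2*, the isoform of insulin signalling in muscle, was at 5903 and 11460.5, a log2 change of 0.96.

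In the TGF-beta family 6 of 29 genes were at least 2-fold higher and 3 lower, beside 9.39% and 11.1% of all genes. The median was −0.04. Myostatin, *Mstn*, which limits muscle growth, had levels of 117 and 906. Its close relative *Gdf11* was at 906 and 2798, and *Tgfb3* at 3437 and 8129.9. *Inhba*, the activin A subunit, was lower at 832 and 325. Of 18 Notch genes 5 were at least 2-fold lower and none higher, with a median of −0.47, among them the receptor *Notch2* (2666 and 1287) and the targets *Hey2* and *Nrarp*. Of 30 targets of Yap and Taz and genes of the Hippo pathway 1 was at least 2-fold higher and 2 lower, with a median of −0.11, a share under the background. *Axl* was the most abundant of the lower genes (6668 and 2846). Of 22 sterol synthesis genes none passed 2-fold in either direction, and the median was −0.16.

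On the list of 24 ATF4 and NRF2 stress genes, which includes *Atf4* itself, 13 were at least 2-fold higher and 2 lower, with a median of 1.12. *Herpud1*, of the endoplasmic reticulum's degradation machinery, had levels of 898 and 4308, and the chaperone *Hspa5* 11102 and 26552. The amino acid transporter *Slc7a5* was at 1975 and 7455, and *Psat1*, of serine synthesis, at 3382 and 7550.3. The lower genes were the antioxidant enzymes *Gsr* (1138 and 488) and *Nqo1* (430.2 and 185). Medians in the other lines were 0.65 in wildtype, 1.01 in *EMD* -/y and 0.67 in +EMD cells.

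Around the nucleus, where emerin resides, 1 of 21 genes was at least 2-fold higher and 3 lower, with a median of −0.22. The lower ones were lamin B1, *Lmnb1* (2185 and 509), the lamin B receptor *Lbr* (1537 and 531) and the giant nesprin *Syne2*, which was 6.36-fold lower. *Tmem38a*, a potassium channel of the muscle nuclear envelope and calcium store, was higher at 3938 and 10500.1. Lamin A/C, *Lmna*, to which emerin binds, was at 17370.0 and 18241, a log2 change of 0.07 that is below 0 when group sums are made equal. Beside 11.1% of all genes, 3 of 21 is a similar share, and the third lamin, *Lmnb2*, had a log2 change of −0.63.

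**Figure D3:**
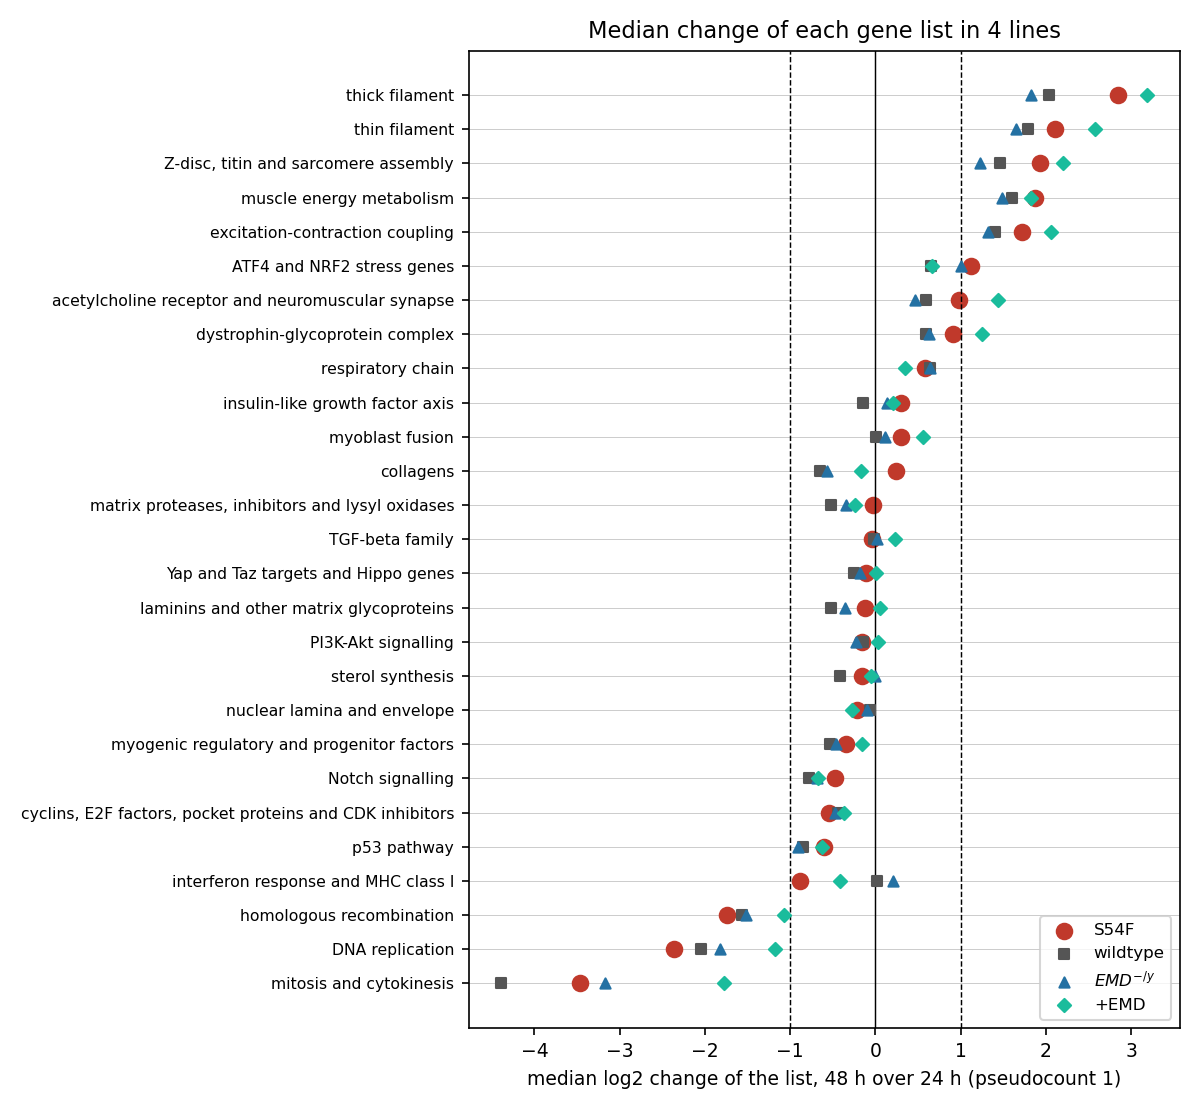
Median log2 change between 24 h and 48 h (horizontal, pseudocount of 1) of 27 gene lists in S54F, wildtype, *EMD* -/y and +EMD progenitors, over the members of each list past the filter; dashed lines mark a 2-fold difference. The S54F medians run from −3.47 for mitosis to 2.85 for the thick filament; that of the collagens, 0.24, is −0.09 when group sums are made equal.

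Compared with the other lines, S54F cells had the longest list of higher genes in common with +EMD cells. Of the 1252 genes at least 2-fold higher in S54F cells, 959 (76.6%) were so in +EMD cells, which is 65.6% of the +EMD list. In wildtype cells 716 were, 57.2% of the S54F and 67.4% of the wildtype list, and in *EMD* -/y cells 705, 56.3% and 69.4%. Of the 1480 lower genes, 997 (67.4%) were lower in wildtype, 1030 (69.6%) in *EMD* -/y and 915 (61.8%) in +EMD cells, which are 63.1%, 70.0% and 72.2% of those lists. In all 4 lines 496 genes were at least 2-fold higher and 647 lower. In none of the other 3 lines were 140 of the higher and 202 of the lower genes of S54F cells past 2-fold in that direction. At least 2-fold higher were 8.01% of genes in wildtype, 7.61% in *EMD* -/y and 11.0% in +EMD cells, and lower were 11.9%, 11.0% and 9.53%.

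By the medians of the sarcomere and excitation-contraction lists, S54F and wildtype cells differed more at 24 h than at 48 h. The thick filament median was 2.85 in S54F, 2.03 in wildtype, 1.82 in *EMD* -/y and 3.19 in +EMD cells. In the table of both lines at 24 h, its genes were lower in S54F cells by a median of −1.03, with 19 of 20 lower, and at 48 h by −0.18, with 12 of 21 lower. *Myh3* was at 32606 in S54F and 70227 in wildtype cells at 24 h, and at 203699 and 248017 at 48 h. *Actn2* was at 1902 and 7469 at 24 h, and at 25408 and 32397 at 48 h. Z-disc genes had medians of −0.59 and −0.04, and those of excitation-contraction coupling −0.38 and −0.15. The list of myogenic and progenitor factors went the other way, with medians of 0.03 at 24 h and 0.13 at 48 h. Single genes went otherwise: *Actc1* was higher in S54F cells at both times (61015 and 30411 at 24 h, 212150 and 90123 at 48 h), and *Myh2* far lower (22.6 and 703, then 74.3 and 3620). In separately normalized levels, *Actn2* at 24 h was at 1795 in S54F, 674 in +EMD and 10722 in *EMD* -/y cells. *Actc1* was at 66115 and 205514 in *EMD* -/y cells and at 37952 and 226868 in +EMD cells. The low *Actn2* at 24 h and the high *Actc1* were thus not particular to S54F cells.

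Mitosis genes showed the reverse, and replication genes did not. Mitosis genes were higher in S54F than in wildtype cells by a median of 0.49 at 24 h and 1.32 at 48 h, with 55 and 54 of 56 genes higher, and DNA replication genes by 0.63 and 0.29. *Mki67* was at 5864 in S54F and 4419 in wildtype cells at 24 h, and at 323 and 69.4 at 48 h. Over the day the mitosis median was −3.47 in S54F, −4.39 in wildtype, −3.17 in *EMD* -/y and −1.78 in +EMD cells. For DNA replication the medians were −2.37, −2.05, −1.82 and −1.18. Over all genes, S54F and wildtype cells differed by a median of −0.01 at 24 h and −0.00 at 48 h. The S54F line thus held more mitotic transcript than wildtype cells at 48 h. Its mitosis median over the day lay between those of wildtype and *EMD* -/y cells. For *Anln* and *Aurkb*, *EMD* -/y and +EMD cells also stood above wildtype cells at 48 h, in separately normalized levels. *Anln* was then at 448 in S54F, 166 in wildtype, 350 in *EMD* -/y and 1672 in +EMD cells, and *Aurkb* at 66.6, 22.3, 51.6 and 382.

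Among 10152 genes ranked by the difference between the S54F and wildtype changes, *Pttg1* stood first with 3.12. Next were *Tssc4* (226 and 139.7 in S54F, 246 and 21.1 in wildtype) and *Tmem254c*, which has the near-identical copies *Tmem254a* and *Tmem254b*. The S54F log2 change of *Tmem254c*, 1.28 here, was 0.69 with S54F levels from the comparisons against wildtype. *Tcap* had a log2 change of 5.06 in S54F, 2.61 in wildtype and 5.50 in +EMD cells. The flippase gene *Atp9a* was at 69.2 and 552 in S54F and at 610.0 and 924 in wildtype cells. *Dner*, a Notch-related membrane protein, was at 156 and 1306 against 259 and 445. The phosphatase *Ptprf* was at 187 and 1539.8 against 1888.5 and 3447, and *Dpysl5*, of growing axons, at 96.9 and 706 against 438 and 668. The secreted lipase inhibitor *Angptl4* and the ATP synthase gene *Atp5g2* complete the 10. *Atp9a*, *Dner* and *Ptprf* had log2 changes of 4.30, 4.27 and 3.56 in +EMD cells.

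At the other end stood *Atp5md*, a small ATP synthase subunit, at 258 and 306 in S54F and at 65.4 and 645 in wildtype cells. Its S54F log2 change, 0.25 here, was 0.64 with S54F levels from the comparisons against wildtype. *Pebp1*, an inhibitor of Raf kinase, was at 3383 and 4955 in S54F and at 283 and 3355 in wildtype cells, and has the copies *Gm10819* and *Gm9824*. The tubulin *Tuba1c*, with 10 near-identical copies, was at 4418 and 1070.3 in S54F and at 5309 and 5583 in wildtype cells. How reads of such copies were assigned is not given. The immediate early genes *Egr3* and *Arc* had log2 changes of −1.74 and −1.15 in S54F cells and of −0.01 and 0.79 in wildtype cells. *Isg15*, *Slfn9*, *Apol9b* and *Ddx60* were also among the 10, and whether genes that respond to interferon are frequent there was not tested. In this order they had S54F changes of −0.97, −2.87, −1.30 and −0.76 and wildtype changes of 0.71, −1.20, 0.33 and 0.87. Their changes were 1.05, −1.63, −0.18 and 1.02 in *EMD* -/y cells and −0.37, −1.53, 0.48 and 0.73 in +EMD cells. *Slfn9* was thus lower at 48 h in each of the 4 lines. *Xirp2*, of the Z-disc and intercalated disc, was at 152 and 465 in S54F and at 11.3 and 114 in wildtype cells.

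Short sequences were also counted in the promoters of these genes. RefSeq promoters (build GRCm38.p6), from 250 bases before to 50 after a gene's start, were found for 12595 of the 17348 genes, 15947 promoters in all, and were searched on both strands. The cell cycle homology region TTTGAA was in 39 of 50 promoters (78.0%) of the mitosis genes at least 2-fold lower, beside 12.7% of all promoters. The CCAAT box, CCAAT, was in 76.0% beside 37.4%. Promoters of the lower replication genes held TTTGAA in 12.8% of 39. They held CCAAT in 59.0% and the E2F sequences TTTGGCGC and TTTCCCGC in 15.4% each, the last 2 beside 0.809% and 1.75% of all promoters. In the 63 promoters of sarcomere genes at least 2-fold higher, the myogenic E-box CAGCTG was in 34.9% beside 16.5%, and CAGGTG in 30.2% beside 19.2%. The M-CAT element CATTCC was in 31.7% beside 12.6%, the CArG box in 11.1% beside 1.36% and the MEF2 site in 17.5% beside 1.83%. In 17 promoters of higher excitation-contraction genes CAGCTG was in 29.4% and the MEF2 site in 17.6%, but CAGGTG in 11.8%, CATTCC in 5.88% and the CArG box in none. In 12 promoters of lower interferon genes TTTGAA was in 16.7%, CAGGTG and CCAAT in 25.0% each, and CAGCTG and both E2F sequences in none. Over the promoters of all genes at least 2-fold higher, CAGCTG was in 24.1% and the MEF2 site in 4.90%. CAGGTG was in 20.8% of them, CATTCC in 17.0%, the CArG box in 1.98% and CCAAT in 36.4%. Each motif was counted on its own, also where it overlapped another, and a match is not evidence of binding.

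To show these letters, promoters are printed of the 2 most abundant genes among those that carry the matches within the 250 bases before the start and on chromosomes other than 18, which are 15 promoters of mitosis genes with CHR and CCAAT, 6 of replication genes with an E2F sequence and 6 of sarcomere genes with CAGCTG and a CArG box or MEF2 site. They run from 250 bases before the start up to the start, on the strand of the gene, and *Myh4* is added as the 1 such sarcomere promoter with all 3 kinds. Capitals mark CHR and CCAAT matches on either strand in *Top2a* (chr11:99024190-99024439, minus strand) and *Mki67* (chr7:135716380-135716629, minus strand).
Top2a: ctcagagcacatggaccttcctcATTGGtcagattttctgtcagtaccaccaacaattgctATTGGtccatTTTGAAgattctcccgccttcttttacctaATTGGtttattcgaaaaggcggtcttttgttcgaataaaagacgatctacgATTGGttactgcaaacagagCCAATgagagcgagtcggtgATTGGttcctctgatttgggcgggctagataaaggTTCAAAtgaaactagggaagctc
Mki67: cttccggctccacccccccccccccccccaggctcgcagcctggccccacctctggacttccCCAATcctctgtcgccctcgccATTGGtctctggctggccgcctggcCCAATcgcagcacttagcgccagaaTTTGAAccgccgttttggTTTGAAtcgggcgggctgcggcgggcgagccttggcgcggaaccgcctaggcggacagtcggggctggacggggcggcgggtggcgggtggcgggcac
Capitals mark E2F matches in *Mcm6* (chr1:128359706-128359955, minus strand), which has 2 of them, and *Mcm7* (chr5:138171884-138172133, minus strand), which has 1.
Mcm6: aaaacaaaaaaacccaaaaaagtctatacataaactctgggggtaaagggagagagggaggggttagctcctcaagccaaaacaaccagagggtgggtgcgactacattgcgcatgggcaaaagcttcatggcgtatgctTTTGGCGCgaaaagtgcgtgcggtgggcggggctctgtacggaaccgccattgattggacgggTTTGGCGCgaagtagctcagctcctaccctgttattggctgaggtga
Mcm7: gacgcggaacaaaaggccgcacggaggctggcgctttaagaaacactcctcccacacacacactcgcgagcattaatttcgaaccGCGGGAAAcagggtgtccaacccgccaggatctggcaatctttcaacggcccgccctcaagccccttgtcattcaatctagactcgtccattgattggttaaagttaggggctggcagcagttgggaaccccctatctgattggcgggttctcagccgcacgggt
Capitals mark the CAGCTG E-box with a CArG box in *Acta1* (chr8:123894776-123895025, minus strand), the E-box with a MEF2 site in *Synpo2l* (chr14:20664575-20664824, minus strand), and a MEF2 site, a CArG box and the E-box in *Myh4* (chr11:67237562-67237811, plus strand).
Acta1: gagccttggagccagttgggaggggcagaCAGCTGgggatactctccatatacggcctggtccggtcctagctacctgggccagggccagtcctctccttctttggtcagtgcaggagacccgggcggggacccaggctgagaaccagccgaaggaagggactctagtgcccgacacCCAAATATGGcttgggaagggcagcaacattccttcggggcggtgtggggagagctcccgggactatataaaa
Synpo2l: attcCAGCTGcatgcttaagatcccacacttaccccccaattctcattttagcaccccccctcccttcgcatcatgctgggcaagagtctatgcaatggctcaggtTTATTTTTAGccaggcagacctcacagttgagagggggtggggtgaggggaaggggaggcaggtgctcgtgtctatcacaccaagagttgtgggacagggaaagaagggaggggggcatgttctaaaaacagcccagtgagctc
Myh4: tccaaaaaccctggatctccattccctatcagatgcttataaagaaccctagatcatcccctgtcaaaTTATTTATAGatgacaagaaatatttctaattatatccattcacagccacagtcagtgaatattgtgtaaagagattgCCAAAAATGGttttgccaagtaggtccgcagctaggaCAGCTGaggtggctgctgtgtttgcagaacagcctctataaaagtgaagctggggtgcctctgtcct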

How the data were processed

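RNA of S54F progenitors was sequenced by BGI Genomics for the authors, with 3 labelled replicates at 24 h and at 48 h. The authors report that BGI Genomics filtered the reads with SOAPnuke, that mapping to mm10 used HISAT2, and that BGI compared groups with DESeq2. The deposited signal values, called levels here, are 1 value per group and gene; the authors' columns of fold changes, p-values and q-values were not used. The levels were checked against the values that single reads take, within a tolerance of 1e-06. They are moderated values and not read sums, so counting intervals were not computed. Changes used a pseudocount of 1, a higher level of at least 10 and a minimum of 2-fold, with no test. Named genes are *Emd*, the 10 largest log2 changes in each direction at levels of at least 100, the most abundant members of each of 27 lists (4 past 2-fold in each direction and 2 not past it, all members of some lists), and the 10 largest differences from wildtype each way. The members and lists were chosen with earlier results of these data known. Copies were sought in GENCODE transcripts with minimap2 2.31-r1302 (at least 200 bases at 97% identity): 20 of 289 named genes have one, and 70 overlap another gene's exons by 100 bases or more. The software was Python 3.11.15 with pandas 2.3.3, numpy 2.4.6 and, for the plots, matplotlib 3.10.9.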

Additional observations from a re-analysis of the deposited data

How the results depend on the processing

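The counts of genes at least 2-fold higher (1252) and lower (1480) stayed within 1.5 times under pseudocounts of 0.1 and 10, with no filter, with a higher level of at least 100, with changes centred on the median gene, without predicted genes, and with levels from the tables against wildtype (1319 and 1582, of which 1245 and 1473 shared). A minimum of 1.5-fold gave 2456 and 2834, and one of 4-fold 357 and 338. Equal group sums gave 861 higher and 2286 lower, and 27.4% of these were higher beside 45.8% in the main setting, a shift of the median by −0.27. Of 27 list medians only that of the collagens changed sign there, and only that of the TGF-beta family with a level of at least 100 (0.09). With equal group sums the interferon median was −1.16 and the ATF4 and NRF2 median 0.85, the other side of 2-fold from before; a pseudocount of 10 also took the latter to 0.99, and a level of at least 100 took the dystrophin complex to 1.00. Of 178 named genes past 2-fold, 159 were past it with equal group sums, 171 with a pseudocount of 10 and 176 from the tables against wildtype, and 0 changed sign. No paired analysis was possible because the tables hold 1 level per group. Leaving out each replicate in turn and a block on replicate number were not run for the same reason.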

Other observations

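The genes in this paragraph were named after their values were seen. The cytoplasmic actins *Actb* and *Actg1* had levels of 37387 and 18701 and of 56607 and 28835, each just under 2-fold lower, while the muscle actins were higher. Tubulins went both ways: *Tubb5* was at 18556 and 8687 and *Tubb2a* at 8036 and 16169. The non-muscle myosins *Myh9* and *Myh10* had log2 changes of −0.72 and −1.22, and *Myh10* had −0.69 in wildtype, −0.42 in *EMD* -/y and −0.04 in +EMD cells.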
